A study of Mus musculus with 2 samples.

Results

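The loci of 10 mouse genes that control or carry out glycolysis and the response to low oxygen were examined in PHLPP1 CUT&Tag libraries of alveolar macrophages. The genes were chosen by name, with earlier results of these data known. They were Hif1a and Epas1 (transcription factors), Slc2a1 (glucose transporter), Hk1, Hk2, Pfkl, Pfkfb3, Aldoa, Pkm and Ldha (enzymes). Every region of the 2 deposited lists that touched a gene body (RefSeq, GRCm38.p6, the assembly of mm10) or the 10 kb on either side was counted. All 10 genes were found among 21883 protein-coding genes, and their windows held 67 of the 165968 regions of the untreated library and 106 of the 226476 regions of the IL-4 library. A region here is an interval in which the authors' peak caller found more tagged DNA fragments than the background it estimated for that library.

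The cells were primary alveolar macrophages from lavage of wild-type mice. CUT&Tag uses an antibody, here against the phosphatase PHLPP1, to direct a transposase that cuts and tags DNA nearby. One library came from untreated cells and 1 from cells given the cytokine IL-4 at 20 ng/ml for 4 h. Mouse strain, age and any pooling of animals are not stated in the sources used here, and a control antibody library was not analysed here. With 1 library per group there were no replicates, so every difference describes these 2 libraries and has no p-value.

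Glycolysis splits glucose into pyruvate in the cytosol. Glucose enters through transporters such as GLUT1, is trapped by hexokinase, is committed at the phosphofructokinase step, is split by aldolase and leaves as pyruvate, which lactate dehydrogenase can turn into lactate. When oxygen is low, HIF-1α and its relative HIF-2α escape degradation, pair with ARNT and bind hypoxia response elements, whose core reads ACGTG or GCGTG, at many genes of this pathway. HIF-1α and glycolysis are best known in macrophages for inflammatory activation, while activation by IL-4 is linked to fatty acid oxidation as well as glucose use. PHLPP1 removes phosphate from AKT, a kinase that promotes glucose uptake and hexokinase activity.

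The DNA just before the gene starts is shown first, because at most of these loci the region of highest fold covered a listed start. Exceptions were Epas1, Ldha without IL-4 and Pfkfb3 with IL-4. The summits of the start regions lay before the start at some genes and past it at others. The sequences are the 250 bases before a start listed by RefSeq (GRCm38.p6), 5′ to 3′ on the gene's own strand. They were chosen as the starts that lay inside a region of both libraries and held the core ACGTG on either strand (CACGT is the core read from the other strand). Capitals mark that core, the E-box CACGTG, which holds the core on both strands, and the cyclic AMP response element TGACGTCA. All motifs were searched on both strands. Of the starts that meet this rule, Pkm's inner start and a further start of Aldoa, whose window overlaps the one shown, are not printed. Epas1 has no entry in the table of starts.
Hif1a (chr12:73907617-73907866, + strand): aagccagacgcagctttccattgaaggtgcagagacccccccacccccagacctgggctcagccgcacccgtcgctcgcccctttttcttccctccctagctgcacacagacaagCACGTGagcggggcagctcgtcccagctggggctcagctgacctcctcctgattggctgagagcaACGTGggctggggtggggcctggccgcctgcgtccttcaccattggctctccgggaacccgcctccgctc
Slc2a1 (chr4:119108495-119108744, + strand): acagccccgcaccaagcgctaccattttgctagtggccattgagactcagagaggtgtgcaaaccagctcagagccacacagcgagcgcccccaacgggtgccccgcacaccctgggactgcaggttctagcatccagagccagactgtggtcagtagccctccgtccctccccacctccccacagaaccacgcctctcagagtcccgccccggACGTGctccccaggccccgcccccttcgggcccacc
Hk2 (chr6:82774455-82774704, - strand): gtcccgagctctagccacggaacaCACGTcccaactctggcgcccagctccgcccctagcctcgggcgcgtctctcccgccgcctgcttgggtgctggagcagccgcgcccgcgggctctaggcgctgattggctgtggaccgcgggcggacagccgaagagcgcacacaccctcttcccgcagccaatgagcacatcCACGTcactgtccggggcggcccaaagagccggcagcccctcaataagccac
Pfkfb3 first start (chr2:11553930-11554179, - strand): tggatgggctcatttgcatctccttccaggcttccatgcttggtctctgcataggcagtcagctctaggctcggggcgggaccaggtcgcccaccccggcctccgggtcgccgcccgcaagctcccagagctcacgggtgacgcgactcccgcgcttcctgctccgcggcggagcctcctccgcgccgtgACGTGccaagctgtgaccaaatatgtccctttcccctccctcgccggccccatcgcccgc
Pfkfb3 inner start (chr2:11502091-11502340, - strand): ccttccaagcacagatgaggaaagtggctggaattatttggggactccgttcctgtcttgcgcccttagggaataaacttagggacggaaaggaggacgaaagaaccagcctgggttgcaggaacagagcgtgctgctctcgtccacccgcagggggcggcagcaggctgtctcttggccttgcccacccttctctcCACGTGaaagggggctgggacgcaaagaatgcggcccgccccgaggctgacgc
Aldoa inner start (chr7:126799255-126799504, - strand): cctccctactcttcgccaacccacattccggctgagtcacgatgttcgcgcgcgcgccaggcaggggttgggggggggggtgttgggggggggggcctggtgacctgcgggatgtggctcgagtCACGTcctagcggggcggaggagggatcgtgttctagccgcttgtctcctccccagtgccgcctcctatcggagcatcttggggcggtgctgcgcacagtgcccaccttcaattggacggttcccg
Ldha first start (chr7:46845554-46845803, + strand): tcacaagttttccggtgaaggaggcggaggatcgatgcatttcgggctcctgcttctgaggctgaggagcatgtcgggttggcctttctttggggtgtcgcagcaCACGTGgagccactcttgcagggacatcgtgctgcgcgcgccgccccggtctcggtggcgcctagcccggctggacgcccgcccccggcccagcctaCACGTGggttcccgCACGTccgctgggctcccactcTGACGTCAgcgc
The core ACGTG was present before 9 of the 15 listed starts of 9 genes, and in 7 of these 9 genes. Among the 9 starts are 2 of Aldoa whose windows overlap and hold the same site. Before the starts of all protein-coding genes it was present at 17.8% of 21262 starts and in 20.0% of 17491 genes. The second core, GCGTG, was present at 5 of 15 member starts, close to the 33.8% of all starts. The E-box was present at 3 member starts, in Hif1a, Pfkfb3 and Ldha, against 6.63% of all starts. TGACGTCA was found at Ldha alone among the 15, against 1.92% of all starts. The spaced palindrome TTCNNNNGAA, a form that STAT6 can bind, was present at 2 member starts, in Hif1a and Ldha, against 5.39%.

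The member windows were also rich in G and C. Their median GC content was 66.4% (49.6 to 69.6) and their median number of CG pairs was 14, against 55.6% and 10 for all starts. Starts with a region within 1 kb in both libraries held ACGTG in 21.8% of 10749 cases, at a median GC content of 60.0%, and starts with a region in neither library in 12.2% of 6904, at 46.8%. The part of base composition in the members' share was not tested. A match describes letters in the window and shows no binding by HIF or STAT6.

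All 10 genes had a region within 1 kb of a start in both libraries. For Epas1, which has no listed start, either end of the gene was used. Among all protein-coding genes the untreated library had such a region at 55.1% and the IL-4 library at 66.8%. A region in the IL-4 library alone was found at 0 of 10 genes, against 14.7% of all genes, and in the untreated library alone at 0, against 2.99%. At a stricter limit, −log10 q of 5 or more, all 10 genes kept a start region in both libraries, against 32.8% and 50.6% of all genes.

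The strongest start region had a higher fold in the IL-4 library at 9 of 10 genes, and the same held for 87.8% of the 11408 genes with a start region in both libraries. Fold is the authors' ratio of fragments at the region's summit to the background of its own library and is not scaled between libraries. The members' median fold was 4.29 in the untreated and 5.19 in the IL-4 library, against 2.88 and 3.498 over all genes with a start region. The median of the folds' ratio, IL-4 over untreated, was 1.38 in the members and 1.29 over all genes.

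**Figure D1:**
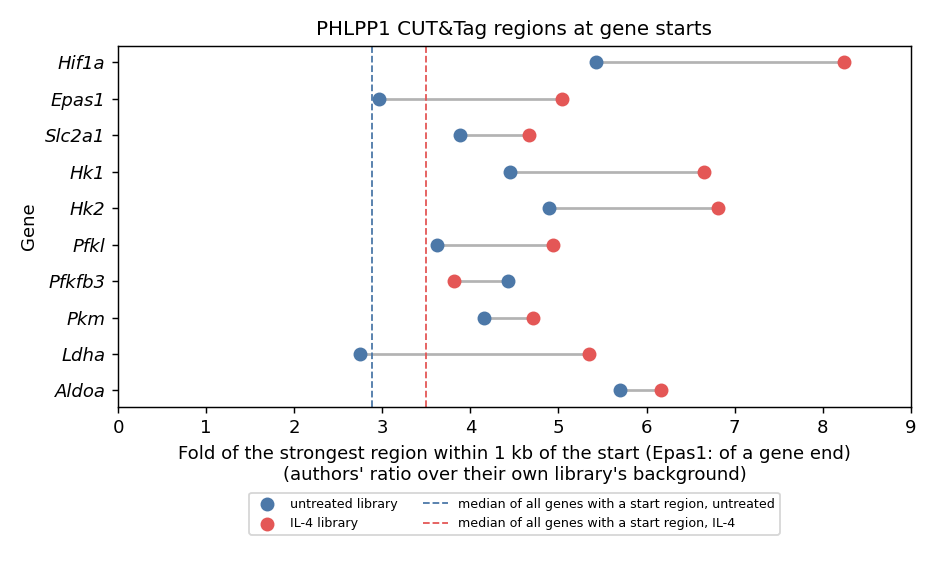
Fold of the strongest region within 1 kb of a start (x axis, the authors' ratio) for each gene (rows), with the untreated library in blue and the IL-4 library in red; dashed lines mark the medians over all genes with a start region. Hif1a had the highest IL-4 value (8.24), and Pfkfb3 was the gene whose untreated value (4.43) exceeded its IL-4 value (3.81).

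The number of fragments piled up at a summit was recovered from the fold and the p of its region. The constant background, which grows with depth, was 13.9 fragments without IL-4 and 15.9 with it, a ratio of 1.14. Pileup ratios below are IL-4 over untreated, not scaled for depth, and can be read against that value. The local background, to which a region's fold refers, can exceed the constant one. At some shared regions it differed more, as at the starts of Slc2a1 (14.0 and 21.3 fragments) and Pkm (13.9 and 21.3). At others, as at the Hif1a start (13.9 and 15.9), it equalled the constant background. The part of the local background in the pileup ratios was not tested. The 95% intervals of these ratios (exact, Clopper-Pearson) cover counting error only, and fragments copied by PCR are not independent.

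By fold, the start of Hif1a, the inducible subunit of HIF-1, carried the strongest IL-4 start region among the 10 genes. The IL-4 start regions of Hk1, Aldoa and Hk2 had higher pileups (177, 166 and 160). Hif1a lies at chr12:73901324-73947554, and its start region covered the listed start at 73907867. It ran from 73907498 to 73908123 without IL-4 (fold 5.43, pileup 80) and from 73907353 to 73908170 with IL-4 (fold 8.24, pileup 138). The summit stood 53 bases before the start in both libraries, between the start and the nearer of the capitalised motifs in the sequence above. The pileup ratio was 1.73 (1.30 to 2.30). This region ranked 1284 of 12062 by fold among gene-start regions without IL-4 and 723 of 14625 with IL-4. Hif1a was otherwise the emptiest locus: its 66.2 kb window held no second untreated region, and the IL-4 library added only a weak one (fold 1.78) past the far end of the gene.

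Epas1, which encodes HIF-2α, showed the opposite layout, with many weak regions and 1 stronger region at an end. It lies at chr17:86753864-86833410. Its strongest region, just outside the lower end, ran from 86752872 to 86753776 in the untreated library (fold 2.96, pileup 44) and from 86752964 to 86753792 in the IL-4 library (fold 5.04, pileup 101). The pileup ratio was 2.30 (1.60 to 3.35), and the summits lay 1 base apart. The window held 9 untreated and 16 IL-4 regions. Of the others, the untreated ones had folds of at most 2.43 and the IL-4 ones of at most 2.78, the last at 86809677 to 86810353 inside the gene. That IL-4 region spanned 2 separate untreated regions.

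Slc2a1, which encodes the glucose transporter GLUT1, had regions at its start, inside the gene and in the upstream flank in both libraries. On chr4:119108745-119137330, its start region ran from 119108414 to 119109005 in the untreated library (fold 3.88, pileup 57) and from 119108453 to 119109472 in the IL-4 library (fold 4.66, pileup 103), a pileup ratio of 1.81 (1.30 to 2.54). The start of the non-coding gene Gm52706 lies at the same place, so the region cannot be given to 1 of the 2 genes. Inside the gene, 17 kb past the start, a region present in both libraries (119125448 to 119126322 in the untreated library) had folds of 3.09 and 4.17 and pileups of 68 and 130, a ratio of 1.91 (1.42 to 2.60).

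At Slc2a1, 7 of 11 IL-4 regions had no untreated counterpart, a share near that over all gene windows (76585 of 139237) and near those of Epas1 (10 of 16) and Hk1 (15 of 25). Of the 7 regions, 4 reached a −log10 q of 5. The strongest, at 119118649 to 119119268, lay inside the gene 10.1 kb past the start, with a fold of 4.14 and a pileup of 77. The nearest untreated region was 4.73 kb away. Another, at −2.8 kb from the start, ran from 119105750 to 119106142 (fold 3.21). One beyond the gene, 31.6 kb past the start (119140150 to 119140446, fold 3.38), lay 12.5 kb from the nearest untreated region. The weakest (119124829 to 119125069, fold 2.05) lay 0.379 kb from an untreated region. The single untreated region without a counterpart there had a fold of 2.15.

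Hk1 and Hk2 encode the hexokinases that phosphorylate glucose, Hk1 in most tissues and Hk2 as the form induced by insulin, HIF-1 and growth signals. Hk1 (chr10:62268855-62379920) has 2 listed starts. The inner start, at 62340421, lay in a region of both libraries (62340011 to 62340687 without IL-4, 62340734 with it). Its folds were 4.45 and 6.65 and its pileups 82 and 177, over local backgrounds of 17.6 and 25.8 fragments. The pileup ratio of 2.16 (1.65 to 2.84) was the highest of the Hk1 pairs, and the summit was at the same base in both libraries, 55 bases past the start. The outer start, at 62379908, had no region within 1 kb in either library; the nearest lay 10971 bases away without IL-4 and 2666 bases away with it. The start of the antisense gene Hk1os lies by the inner start and shares its region.

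The Hk1 window, the longest at 131 kb, held 13 untreated and 25 IL-4 regions. It reaches into the neighbours Tacr2 and Hkdc1. The shared regions at 62261182 and 62265068 (untreated positions) lay inside Tacr2, and the IL-4 region at 62386197 lay inside Hkdc1. Of the 25 IL-4 regions in the window, 15 had no untreated counterpart, again a share near that over all gene windows. All 15 were weak, with folds of 1.68 to 2.26 and none at a −log10 q of 5. Hk1 thus had more such regions than Slc2a1, in a longer window (131 kb against 48.6 kb), but none as strong as the 4.14 found there.

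Hk2 (chr6:82725025-82774454) had strong regions at its start and at 2 places inside the gene. The start region ran from 82774222 to 82774842 in the untreated library (fold 4.89, pileup 72) and from 82774265 to 82774895 in the IL-4 library (fold 6.81, pileup 160), a ratio of 2.22 (1.67 to 2.98). The summit stood 52 bases past the start without IL-4 and 80 bases before it with IL-4. A separate region followed about 1 kb into the gene (82773351 to 82773858), where the folds were 3.08 and 3.53.

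Both intragenic regions of Hk2 had higher folds with IL-4. At 82753035 to 82753791 the folds were 2.68 and 5.07, with pileups of 39 and 93 and a ratio of 2.38 (1.62 to 3.56). At 82764061 to 82764505 the folds were 3.35 and 5.04 and the ratio 1.71 (1.19 to 2.49). The IL-4 library alone had 3 regions there that reached a −log10 q of 5, at 82740393 to 82740611 (fold 2.55) and 82741215 to 82741630 (2.79) inside the gene and at 82780986 to 82781386 (2.49) before the start.

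Pfkl encodes the liver-type subunit of phosphofructokinase, the committing step of glycolysis. At chr10:77986947-78009807, its start region, 78009125 to 78010002 without IL-4, had folds of 3.62 and 4.94 and pileups of 53 and 100, a ratio of 1.89 (1.34 to 2.68). The summit lay inside the gene, 484 and 456 bases past the start. The largest pileup ratio of all 52 shared pairs was found in its upstream flank, at 78012985 to 78013206 (78013412 in the IL-4 library), where the fold was 1.81 in the untreated and 3.24 in the IL-4 library and the ratio 2.54 (1.59 to 4.16). That pair had pileups of 26 and 66, over local backgrounds of 13.9 and 19.7 fragments. The untreated pileup was the lowest of the 52 pairs, at a −log10 q of 1.00. The region of the other flank at 77978258 to 77978865 (folds 2.62 and 3.73) lay at the start of the neighbour Cfap410. The IL-4 library alone had a region at 77984692 to 77985046 (fold 3.27), by the start of the non-coding gene Gm51807.

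Pfkfb3 encodes the enzyme that makes fructose 2,6-bisphosphate, the strongest activator of phosphofructokinase, and its start was the exception among the 10. The gene lies at chr2:11471430-11554071. At the first start (11553929) the untreated region, 11553488 to 11554194, had a fold of 4.43 and a pileup of 65, and the IL-4 region, 11552894 to 11554187, had a fold of 3.81 and a pileup of 72. The pileup ratio of 1.11 (0.781 to 1.57) lay below the ratio of the backgrounds, with an interval that includes it. The local background of this region was 13.9 fragments in the untreated and 18.1 in the IL-4 library. The IL-4 region was wider, 1294 against 707 bp, and spanned a second untreated region.

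The inner start of Pfkfb3 (11502090), in the sequence with the E-box, lay in a wide region of both libraries. That region measured 1206 bp in the untreated and 1419 bp in the IL-4 library, and its folds of 3.53 and 3.40 were close. Its pileups were 60 and 90, a ratio of 1.5 (1.07 to 2.12), over local backgrounds of 16.3 and 25.8 fragments. Its summit stood about 0.6 kb past the start in both, and the start of the non-coding gene Gm52500 shares the region.

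Between these starts Pfkfb3 held the region of highest fold among those inside the 10 gene bodies and more than 1 kb from a start. It ran from 11535468 to 11535854 in the untreated library (fold 3.82, pileup 56) and from 11535403 to 11535926 in the IL-4 library (fold 6.70, pileup 112), a ratio of 2.0 (1.44 to 2.81). The summits were 1 base apart. A region in the IL-4 library alone lay at 11530036 to 11530518 (fold 3.32), 4.95 kb from the nearest untreated region, and another at 11484552 to 11484991 (fold 2.66), 0.941 kb from one. While the folds at both starts of Pfkfb3 were lower with IL-4, the fold of this region was higher.

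**Figure D2:**
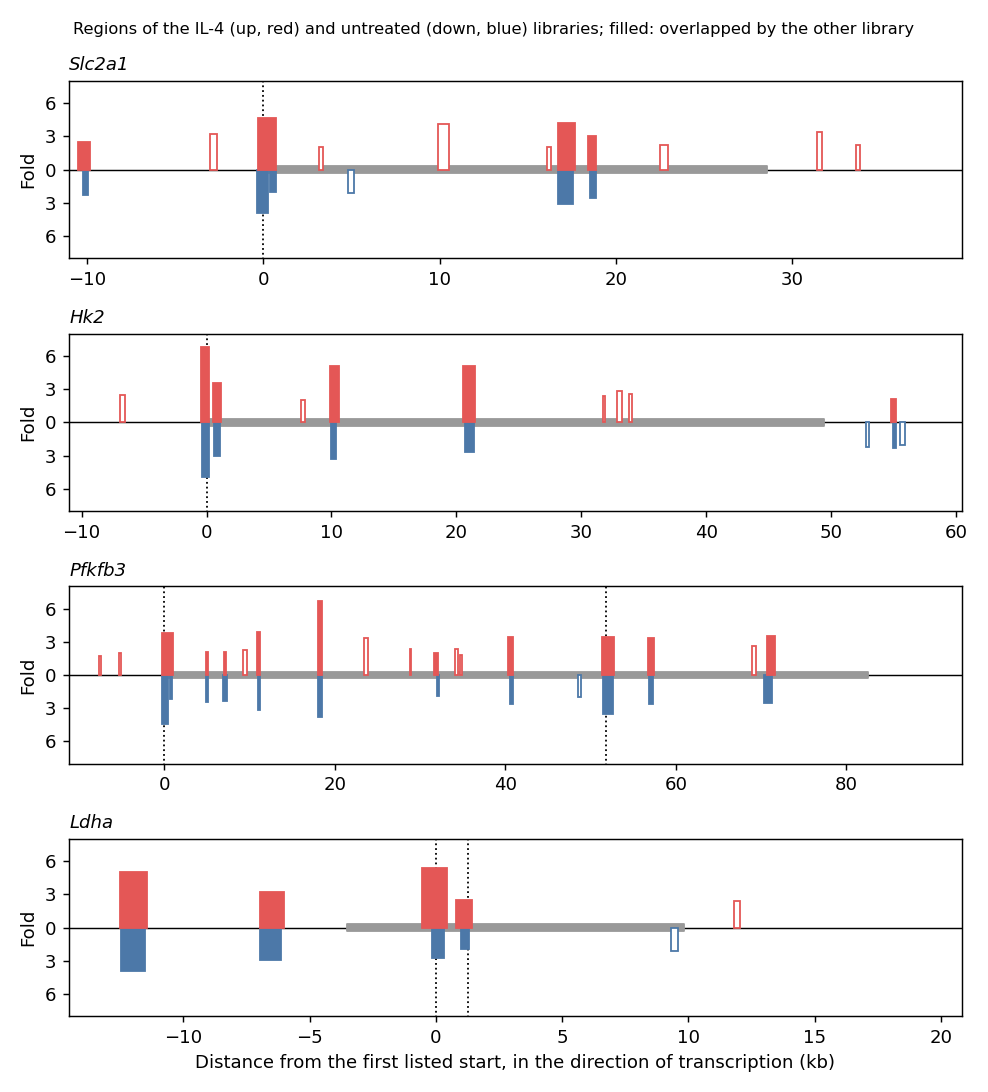
Regions of the IL-4 library (red, upward) and the untreated library (blue, downward) by distance from the first listed start in the direction of transcription (x axis, kb), with bar height the authors' fold and bar width the region's width; filled bars are overlapped by the other library, grey marks the gene body and dotted lines the listed starts. Slc2a1 shows an unfilled IL-4 bar of 4.14 inside the gene, and Pfkfb3 a tall filled bar of 6.70 between its 2 starts.

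Aldoa, which encodes the aldolase that splits fructose 1,6-bisphosphate, had the strongest start region of the untreated library among the 10. The gene lies at chr7:126795234-126800994 and has 3 listed starts. The region covered the 2 inner ones (126799254 and 126799178), from 126798862 to 126799912 in the untreated library (fold 5.70, pileup 95) and to 126800150 in the IL-4 library (fold 6.16, pileup 166). The pileup ratio was 1.75 (1.35 to 2.27), and the local background was 15.8 fragments without IL-4 and 26.1 with it. The outer start, at 126800447, lay 0.535 kb outside the untreated region and 0.297 kb outside the IL-4 region. The window is short, 25.8 kb, and its 4 untreated and 4 IL-4 regions all had a counterpart; 1 of them (126792021 to 126792762, folds 2.82 and 3.38) lay at the start of Ppp4c.

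Pkm, which encodes the pyruvate kinase that makes pyruvate and ATP, had the widest region. Pkm lies at chr9:59656576-59679372, with starts at 59656576 and 59657227. The untreated library had a region at each start, 59655904 to 59656811 (fold 4.16, pileup 61) and 59657170 to 59657635 (fold 2.27, pileup 33). The IL-4 library had a single region of 1756 bp over both, 59655885 to 59657640 (fold 4.71, pileup 104). Its pileup ratio to the stronger untreated region was 1.70 (1.23 to 2.38). The start of the non-coding gene Gm51708 lies by the first start and shares these regions. Past the end of the gene, a region by the start of Gramd2 had folds of 1.88 and 3.04.

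Ldha, which encodes the subunit of lactate dehydrogenase that favours lactate formation, had the largest fold ratio at a start. Ldha lies at chr7:46842274-46855627, with listed starts at 46845804 and 46847082. The region at the first start was 498 bp wide in the untreated library (46845640 to 46846137, fold 2.75, pileup 40) and 1003 bp wide in the IL-4 library (46845252 to 46846254, fold 5.34, pileup 92). The fold ratio was 1.94, and the pileup ratio of 2.30 (1.57 to 3.42) was matched by Epas1. The first start has the densest motif content of the sequences shown, with 2 E-boxes, 1 further ACGTG core and TGACGTCA. The inner start had a weaker region, with folds of 1.94 and 2.49.

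Upstream of Ldha 2 further regions were shared. The region at 46833324 to 46834264 had folds of 3.93 and 5.04 and a pileup ratio of 1.87 (1.35 to 2.60), and the region at 46838817 to 46839671 had folds of 2.88 and 3.20 and a ratio of 1.26 (0.826 to 1.94). The result at Ldha depends on which position is taken as the start. With either end of the gene model in place of the listed starts, Ldha had only an untreated region (fold 2.15, 46855131 to 46855402, near its far end), Aldoa only an IL-4 region, and Hif1a and Hk1 had none in either library.

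Counted over whole windows, 8 of the 10 genes had more regions in the IL-4 library, and Ldha (5 and 5) and Aldoa (4 and 4) had equal numbers. Of all 21883 protein-coding genes, 15053 had more with IL-4, 2410 had fewer and 4420 had equal numbers. The median ratio of region numbers, IL-4 over untreated, was 1.55 in the members and 1.5 over the 19017 protein-coding genes with an untreated region. Region density ranged from 0.151 per 10 kb at Hif1a to 1.55 at Aldoa without IL-4, and from 0.302 at Hif1a to 2.26 at Slc2a1 with it. The members' median densities were 1.17 and 1.62 regions per 10 kb, against 0.662 and 1.19 over all genes. The regions covered 0.945% of the Hif1a window and 9.47% of the Aldoa window without IL-4, and 1.54% and 11.1% with it; the highest share with IL-4 was 11.7%, at Ldha.

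**Figure D3:**
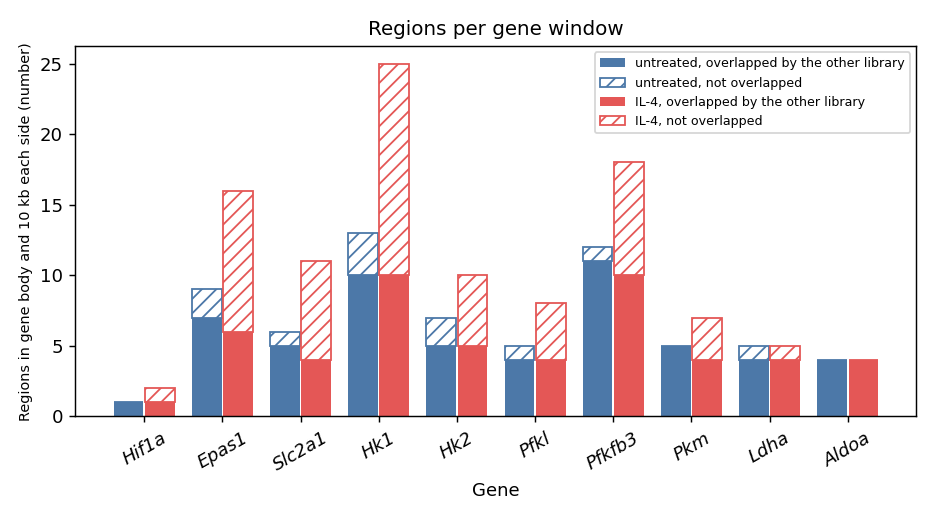
Number of regions in each gene body and the 10 kb on either side (y axis) for each gene (x axis), untreated in blue and IL-4 in red; filled parts are regions overlapped by the other library and hatched parts are not. Hk1 had the most regions (13 and 25), and the hatched part was larger in the IL-4 library at 8 genes.

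Untreated regions at these genes were mostly found again with IL-4. Of 67 untreated regions, 56 overlapped an IL-4 region by at least 1 bp (83.6%, 95% interval 72.5 to 91.5), against 68.6% of the regions in the windows of all protein-coding genes. Of 106 IL-4 regions, 52 overlapped an untreated region (49.1%, 39.2 to 58.9), against 62652 of 139237 for all gene windows. Both intervals cover counting error only and treat regions of 1 locus as independent. A −log10 q of 5 was reached by 31.3% of untreated and 48.1% of IL-4 member regions, against 20.8% and 34.2% over all gene windows. The part of region strength and width in the overlap shares was not tested. The 11 untreated regions without a counterpart had folds of 1.81 to 2.28, and none reached a −log10 q of 5. The 54 IL-4 regions without one had folds of 1.63 to 4.14, with a median of 2.06; 11 of them, at Slc2a1, Hk2, Pfkfb3, Pfkl and Epas1, reached a −log10 q of 5, and 35 lay inside gene bodies away from starts. Hk1, Pkm, Ldha, Aldoa and Hif1a had none at that limit.

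Regions shared by both libraries were stronger and wider than the others. In the untreated library the shared regions had a median fold of 2.46 and a median width of 393 bp, and the others 2.15 and 293 bp. In the IL-4 library the values were 3.06 and 593.5 bp against 2.06 and 282 bp. Over all gene windows the untreated library had 2.28 and 350 bp for shared regions and 2.06 and 253 bp for the others. The IL-4 library had 2.44 and 426 bp there for shared regions and 2.07 and 288 bp for the others. The rule for sharing, an overlap of at least 1 bp, is itself met more easily by wider regions. The median width of all regions in the member windows was 369 bp in the untreated and 388.5 bp in the IL-4 library, against 309 and 338 bp over all gene windows. Regions of 1000 bp or more numbered 2 of 67 in the untreated library (Pfkfb3 inner start and Aldoa) and 10 of 106 in the IL-4 library, against 1508 of 92488 and 3495 of 139237 over all gene windows.

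Of 52 pairs in which each region was the other's strongest partner, 39 were wider in the IL-4 library, against 68.2% over all gene windows. The summits of 31 pairs (59.6%) lay within 100 bp of each other, against 64.0%. The median pileup ratio was 1.52, with a range of 1.03 to 2.54, against 1.32 over 61839 pairs in all gene windows. The interval of the ratio lay wholly above the constant background ratio of 1.14 for 19 of 52 pairs, against 18.8% of all pairs, and below it for 0. This count did not use the local backgrounds, which differed more between the libraries at some regions. The median was higher in both sets among pairs with an untreated fold of 3 or more, at 1.80 over 15 member pairs and 1.54 over 10887 pairs in all gene windows. The part of region strength in the members' median was not tested.

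**Figure D4:**
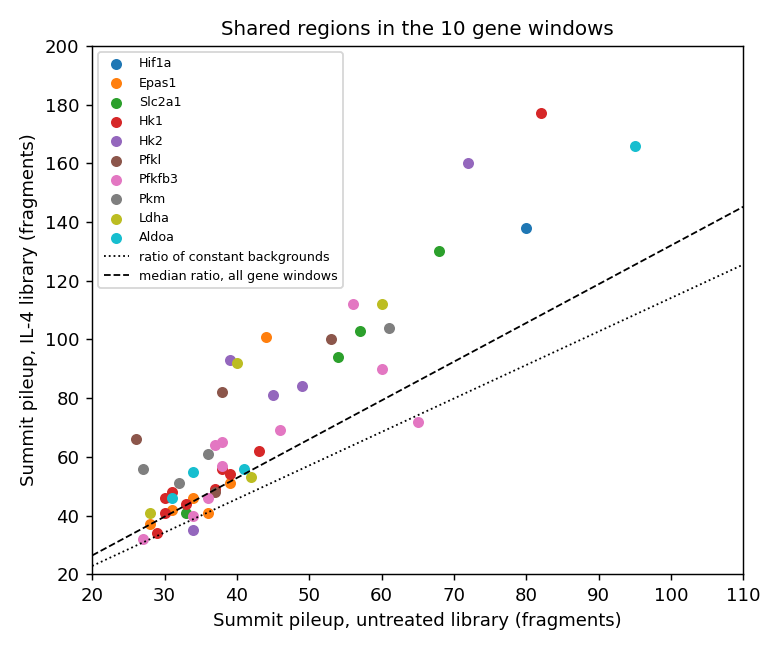
Fragments piled up at the summit in the untreated library (x axis) and the IL-4 library (y axis) for the 52 shared pairs, coloured by gene; the dotted line is the ratio of the constant backgrounds (1.14) and the dashed line the median ratio over all gene windows (1.32). The Pfkfb3 start region (65 and 72) lies just below the dotted line, while the Hk1 and Hk2 start regions (82 and 177, 72 and 160) lie far above the dashed line.

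Start regions were also found at most other genes of glycolysis and hypoxia control. Of 34 other genes of glycolysis, 27 had a start region without IL-4 and 28 with IL-4, and of 24 other genes of hypoxia control, 19 and 23. Together this was 46 and 51 of 58 genes, against 55.1% and 66.8% of all genes. Under the −log10 q limit of 5 it was 29 and 43 of 58, against 32.8% and 50.6%. Of the 45 genes with a start region in both libraries, 43 had a higher fold with IL-4, against 87.8% of all such genes, with a median fold ratio of 1.32 and a median pileup ratio of 1.69, against 1.29 and 1.60 over all genes. The exceptions, singled out after their values were seen, were Pklr (red cell and liver pyruvate kinase, folds 2.55 and 2.49) and Arnt2 (a relative of Arnt, 2.48 and 2.02). The members' own medians were 1.38 and 1.85.

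The highest untreated folds among these genes were at P4ha1 (a collagen prolyl hydroxylase induced by hypoxia, 6.64), Ankrd37 (a HIF-1 target, 6.10) and Pfkfb4 (a relative of Pfkfb3, 6.07). The highest IL-4 folds were at P4ha1 (8.89), Pgam1 (phosphoglycerate mutase, 8.83) and Bnip3l (a mitophagy receptor, 7.98, at a gene end since no start is listed). At 6 of the 58 genes only the IL-4 library had a start region, against 14.7% of all genes. These were Adm (the peptide adrenomedullin, 2.46), Hkdc1 (a hexokinase relative next to Hk1, 2.35), Hif3a (another HIF α subunit, 2.18), Egln1 (the main oxygen sensor that marks HIF for degradation, 1.96), Pdk3 (an inhibitor of pyruvate dehydrogenase, 1.78) and P4ha2 (1.69). Fbp1, which runs the opposite reaction to phosphofructokinase, had one in the untreated library alone (2.24), against 2.99% of all genes. All of these except Adm were under a −log10 q of 5. Arnt, the partner of both HIF subunits, had folds of 4.43 and 6.58.

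As a check of the cell label, starts of 9 of 11 alveolar macrophage markers and all 6 general macrophage markers had a region in both libraries; Chil3 and Krt79 had none in either. Among all genes the untreated library had a start region at 55.1% and the IL-4 library at 66.8%. The alveolar macrophage regions were weak, with median folds of 2.35 and 3.16 against 2.88 and 3.498 over all genes, and 2 and 8 of the 11 markers reached a −log10 q of 5. T and B cell markers had 0 and 2 of 6, lung epithelium markers 3 and 5 of 6, and granulocyte markers 2 and 3 of 6, of which S100a8 had folds of 4.89 and 7.11. With IL-4, the share of lung epithelium markers with a start region (5 of 6) was thus no lower than that of alveolar macrophage markers (9 of 11). A region near a start is not a measure of expression, and the part of other cells in the results above was not tested.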

How the data were processed

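PHLPP1 CUT&Tag was measured in 1 untreated and 1 IL-4 library of mouse alveolar macrophages. Bowtie 0.12.8, MACS2 2.2.7.1, DiffBind and mm10 are named per the submitters' processing notes, without roles; caller settings and controls are not given in the sources used here. Each deposited list, called per library, gives for every region the authors' fold (a ratio to that library's background), a −log10 p and −log10 q against the same background, an integer score (the authors' own, not used) and a summit position. Depth in reads is not stated, nor whether the caller counted fragments or single reads; they are called fragments here. Whole-number pileups were recovered from the deposited fold and −log10 p, within 0.001 of −log10 p, for 99.94% and 99.96% of regions; the method and the overlap search were tested on simulated data.

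Autosomes, X and Y were kept, and coordinates count from 1. Overlap meant at least 1 bp. Starts and strands came from the RefSeq promoter table (GRCm38.p6), which matched 9 of 10 members; elsewhere either gene end served. Named genes were the 10 members and, of 58 other pathway genes, those with a start region in 1 library alone and, per library, the 3 with the highest fold; Arnt was chosen after its values were seen. The members and gene lists were chosen with earlier results of these data known. Alternatives covered limits on −log10 q and fold, equal list lengths, windows, flanks and overlap rules. Python 3.11.15, numpy 2.4.6, pandas 2.3.3, scipy 1.17.1 and matplotlib 3.10.9 were used.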

Additional observations from a re-analysis of the deposited data

How the results depend on the processing

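Of 84 alternative values of the 13 main results, 65 stayed within 1.5 times for counts, 10% for medians and the counting interval for shares. All 10 genes had a start region in both libraries with a narrower and a wider start window, with equal list lengths and with a −log10 q limit of 5. At a fold of at least 3, genes with a start region in the IL-4 library alone numbered 2 (Epas1 and Ldha). With either gene end in place of the start, 1 gene (Aldoa) had a region with IL-4 only and 1 (Ldha) without IL-4 only. Under the −log10 q limit the windows held 21 untreated and 51 IL-4 regions, and under the fold limit they held 15 and 33. All untreated regions then overlapped an IL-4 region (100% under each limit), the median widths were 707 and 620 bp (−log10 q) and 677 and 724 bp (fold), the median pileup ratio was 1.80 under each, and 29 and 27 other pathway genes had an untreated start region. The share of untreated regions overlapped fell to 65.7% (44 of 67) when the overlap had to cover at least 50% of both regions. With equal list lengths, 61.0% of IL-4 regions overlapped an untreated region, and the IL-4 windows held 82 regions. The fold limit removed the untreated start regions of Epas1 and Ldha. Either gene end removed the start region of Hif1a and Hk1 in both libraries, of Aldoa without IL-4 and of Ldha with IL-4. Of the 112 alternative start folds that remained for single genes, only the untreated fold of Ldha moved by more than 10%, to 2.15 at the gene's end. No paired analysis was possible because each group held 1 library. Leaving out a replicate was not possible for the same reason. Depth in reads is unknown, so a region absent from a list was not detected there, which does not show that it is absent.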
